A study of Mus musculus and Rattus norvegicus with 6 samples.

Results

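The interferon regulatory factors (IRFs) were followed in the bulk RNA-seq of cultured mouse smooth muscle cells (SMCs) after knockdown of YAP and TAZ. They were taken by gene symbol as Irf1, Irf2, Irf3, Irf4, Irf5, Irf7, Irf8 and Irf9, which gives 8 genes of the 55573 in the deposited table. The siCo group holds 2 libraries of cells given a control siRNA, and the siYAP/TAZ group holds 2 libraries of cells given siRNAs against both coactivators. The groups thus differ in the siRNAs themselves as well as in YAP and TAZ, and effects of the 2 cannot be told apart here. All 4 carry the genotype label WT, and the sources used here give neither the time between transfection and RNA extraction nor which of the YAP/TAZ siRNA mixes these cells received. The sample labels name the line MOVAS, a mouse aortic SMC line, whereas the study's legends call the cells primary penile SMCs. Nothing in the labels ties the libraries of a group to separate cultures, so the p-values below reflect only how much these libraries vary, and that variation may be technical.

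IRFs are transcription factors that share an N-terminal DNA-binding domain and recognise GAAA repeats in the interferon-stimulated response element (ISRE). Foreign nucleic acid in a cell leads to phosphorylation of IRF3 and IRF7 by TBK1 and the related kinase IKK-epsilon, after which both switch on type I interferon genes. The secreted interferon then signals through Janus kinases to STAT proteins, which join IRF9 as the complex ISGF3 and drive interferon-stimulated genes, Irf7 among them. IRF1 acts mainly after interferon gamma, IRF2 competes with it for the same sites, IRF5 serves inflammatory cytokine genes, and IRF4 and IRF8 are best known from blood cells.

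The sequence just upstream of 3 factors is shown because it holds the letters through which interferon is known to reach such genes. RefSeq on GRCm38.p6 gave 11 windows for the 8 factors, each of 250 bases before and 50 bases after an annotated start. They were searched on both strands for the core of an ISRE (2 GAAA runs set 2 bases apart), for TTCNNNGAA, the STAT site known as GAS, and for GGAATG, a site of the TEAD factors that carry YAP and TAZ to DNA. The 3 patterns overlapped nowhere in these windows. GAS letters were present in 8.30% of all 32851 windows of this length, ISRE core letters in 3.44% and TEAD letters in 14.7%. Of the 11 windows of the factors 3 held GAS letters, each of another factor, 1 held ISRE core letters and 0 held TEAD letters. The windows of Irf3, Irf4, Irf5, Irf7 and Irf9 held none of the 3 patterns. Irf5 and Irf7 had the largest changes of the tested factors. The 250 bases upstream of the start are given 5′ to 3′ for these 3 factors, with GAS and ISRE core letters in capitals. The Irf1 stretch is chr11:53769764-53770013, that of Irf2 is chr8:46739495-46739744 and that of Irf8 is chr8:120736108-120736357, all on the plus strand.
Irf1: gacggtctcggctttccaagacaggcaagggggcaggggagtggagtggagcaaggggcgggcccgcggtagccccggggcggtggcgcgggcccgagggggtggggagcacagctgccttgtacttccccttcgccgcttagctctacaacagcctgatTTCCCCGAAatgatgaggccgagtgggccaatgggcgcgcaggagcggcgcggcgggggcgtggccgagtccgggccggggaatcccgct
Irf2: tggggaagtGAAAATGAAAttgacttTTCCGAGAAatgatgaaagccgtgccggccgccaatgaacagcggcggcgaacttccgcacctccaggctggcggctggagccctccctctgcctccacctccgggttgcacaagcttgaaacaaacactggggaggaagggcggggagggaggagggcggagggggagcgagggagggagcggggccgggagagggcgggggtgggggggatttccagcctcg
Irf8: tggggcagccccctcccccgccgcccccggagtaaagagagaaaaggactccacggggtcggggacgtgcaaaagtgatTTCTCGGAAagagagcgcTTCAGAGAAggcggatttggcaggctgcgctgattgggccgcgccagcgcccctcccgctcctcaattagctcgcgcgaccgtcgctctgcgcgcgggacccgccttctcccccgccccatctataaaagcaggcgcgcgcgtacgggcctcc
In Irf1 the run TTCCCCGAA began 90 bases upstream of the start. In Irf2 the ISRE core GAAAATGAAA began 241 bases and the GAS run TTCCGAGAA 224 bases upstream. In Irf8 the GAS runs TTCTCGGAA and TTCAGAGAA began 171 and 153 bases upstream. These are matches of letters, and binding was not measured.

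Depth was similar in all libraries, with 17192309 to 18751368 counts each. The targeted genes were low in the libraries labelled as knockdown. Yap1 had 21.9 and 23.5 FPKM in the siCo and 1.87 and 2.03 FPKM in the siYAP/TAZ libraries, and Wwtr1, which encodes TAZ, had 56.5 and 59.1 against 16.8 and 17.7 FPKM. FPKM is the count scaled to exonic length and library total. Of 15479 genes tested by edgeR's quasi-likelihood test, 55.4% passed, 27.6% as higher and 27.7% as lower in siYAP/TAZ cells, so a call by itself sets no gene apart. How many of all genes had no overlap between the groups was not counted, so a lack of overlap sets no gene apart either. Of 8 smooth muscle markers 5 were lower, 1 was higher and 2 did not pass. Acta2, the highest of the 8, had 138 and 142 FPKM in the siCo and 68.75 and 66.14 FPKM in the siYAP/TAZ libraries. In the siCo libraries Tagln had 35.7 and 35.3 FPKM and Myh11 had 1.29 FPKM in each. Myocd stayed below 0.5 FPKM in all 4 libraries.

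Irf7 was the most abundant factor and was higher in the siYAP/TAZ libraries. Irf7 (ENSMUSG00000025498), the amplifier of the type I interferon response, lies on chromosome 7 from 141262706 to 141266481 on the minus strand. Its level was 233 and 222 FPKM in the siCo libraries and 380.0 and 390.2 FPKM in the siYAP/TAZ libraries, so both libraries with less YAP and TAZ stood above both controls. The log2 fold change was 0.80 (SE, the standard error of the fit, 0.0404, 1.74-fold, adjusted p = 4.346e-13 by edgeR). It shares 45 of 3776 exonic bases with Phrf1 on the opposite strand. Irf7 made up 77.2% and 77.1% of the summed FPKM of the 8 factors in the siCo libraries and 80.0% in each siYAP/TAZ library. The sum over the other 7 factors was 69.1 and 66.2 FPKM in the siCo libraries and 94.9 and 97.8 FPKM in the siYAP/TAZ libraries.

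**Figure D1:**
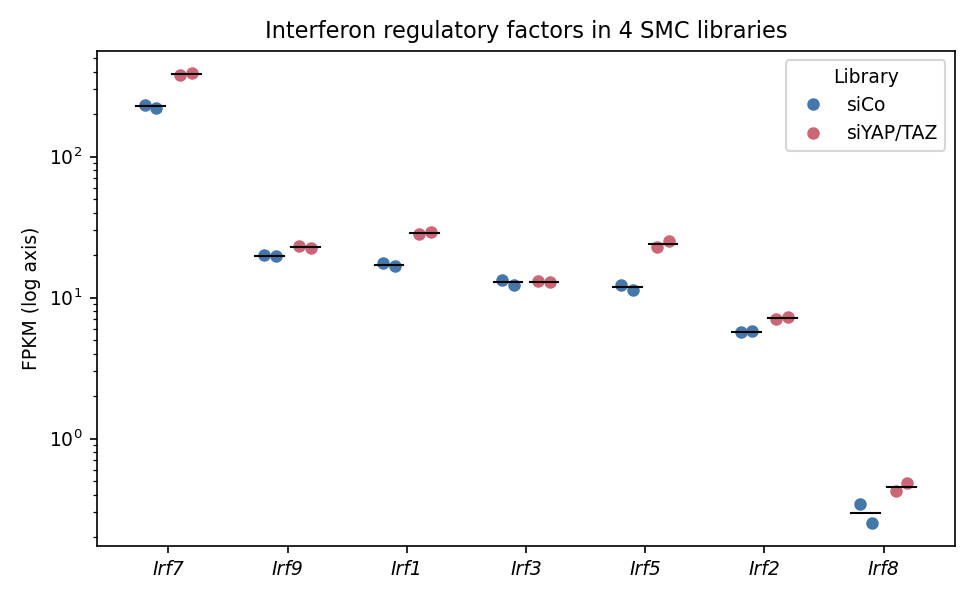
FPKM of 7 factors in each library on a log axis, with siCo in blue, siYAP/TAZ in red and a bar at the mean of each group (n = 2). Irf7 sits more than an order of magnitude above every other factor in both groups, the groups of Irf3 overlap, and Irf4 is left off because 1 library had a count of 0.

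Irf5 showed the largest change of the tested factors. Irf5 (ENSMUSG00000029771), which acts downstream of Toll-like receptors, lies on chromosome 6 from 29526625 to 29541871 on the plus strand. It had 12.3 and 11.4 FPKM in the siCo libraries and 22.9 and 25.4 FPKM in the siYAP/TAZ libraries, with no overlap between the groups. The log2 fold change was 1.07 (SE 0.070, 2.10-fold, adjusted p = 2.702e-11 by edgeR). Of its 2905 exonic bases, 411 are shared with exons of Tnpo3, a nuclear import receptor gene on the opposite strand. The sources used here do not say whether reads were counted by strand, so reads from the shared bases make the Irf5 count uncertain. Tnpo3 itself went the other way, with a log2 fold change of -0.38 (SE 0.0499, adjusted p = 1.248e-06 by edgeR).

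Irf1 and Irf2, the pair that competes for shared sites, both rose. Irf1 (ENSMUSG00000018899, chromosome 11 from 53770014 to 53778374, plus strand) had 17.5 and 16.7 FPKM in the siCo libraries and 28.2 and 29.1 FPKM in the siYAP/TAZ libraries. Its log2 fold change was 0.79 (SE 0.0526, adjusted p = 3.910e-11 by edgeR). Irf2 (ENSMUSG00000031627, chromosome 8 from 46739732 to 46847458, plus strand) had 5.66 and 5.84 FPKM against 7.10 and 7.31 FPKM. Its log2 fold change was 0.37 (SE 0.0652, adjusted p = 5.433e-05 by edgeR). For both genes the 2 siYAP/TAZ libraries lay above the 2 siCo libraries. Irf1 shares 135 of 3976 exonic bases with Gm17334 on the opposite strand, and Irf2 shares none. Both carry the GAS letters shown above, and among the 11 windows searched only that of Irf2 held the ISRE core letters. Sequence outside the windows was not searched, and both Irf9 windows began downstream of the Irf9 gene start.

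Irf9 rose slightly and Irf3 did not pass the test. Irf9 (ENSMUSG00000002325, chromosome 14 from 55603571 to 55610030, plus strand), the DNA-binding part of ISGF3, had 20.0 and 19.6 FPKM in the siCo libraries and 23.2 and 22.6 FPKM in the siYAP/TAZ libraries. The groups did not overlap, and the log2 fold change was 0.25 (SE 0.0479, 1.19-fold, adjusted p = 0.0001303 by edgeR). Irf9 shares 123 of 5386 exonic bases with Rnf31, a ubiquitin ligase gene on the same strand, which had a log2 fold change of 0.33 (SE 0.0564, adjusted p = 3.284e-05 by edgeR). Irf3 (ENSMUSG00000003184, chromosome 7 from 44997648 to 45002848, plus strand), which is activated by phosphorylation of protein already present, had 13.3 and 12.4 FPKM against 13.1 and 12.9 FPKM. Its groups overlapped, with a log2 fold change of 0.06 (SE 0.0682, adjusted p = 0.4714 by edgeR). It shares 88 of 3442 exonic bases with Bcl2l12 on the opposite strand.

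The 2 factors of blood cells were barely detected. Irf8 (ENSMUSG00000041515, chromosome 8 from 120736358 to 120756694, plus strand) had 45 and 32 counts in siCo and 56 and 59 counts in siYAP/TAZ cells, or 0.346 and 0.252 against 0.423 and 0.486 FPKM. Its log2 fold change of 0.64 (SE 0.267) passed narrowly, with an adjusted p of 0.04604 from edgeR, and DESeq2 gave an adjusted p of 0.1868. It did not pass without siCo replicate 2 (log2 fold change 0.44, adjusted p = 0.2417 by edgeR), without siYAP/TAZ replicate 1 (0.75, adjusted p = 0.07698) or without siYAP/TAZ replicate 2 (0.55, adjusted p = 0.224). Over all 13 alternatives that gave an Irf8 value the adjusted p ran from 0.01855 to 0.2417. Irf4 (ENSMUSG00000021356, chromosome 13 from 30749226 to 30766976, plus strand) had 0 and 2 counts in siCo and 8 and 1 counts in siYAP/TAZ cells, and was too low to be tested. Its groups overlapped, and the ratio of 9 to 2 counts per total count was 4.56 with 95% exact limits of 0.944 and 43.4 for counting error alone. A count of 0 allows up to 3 counts, or 0.0332 FPKM in that library.

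Beside these low counts, most markers of blood cells were low as well. Of 8 lymphocyte markers all were below 0.5 FPKM in each library, and Cd3e, Cd3d and Cd3g had 0 counts. Of 10 macrophage markers 7 were below 0.5 FPKM, among them Ptprc with 2 counts over all libraries and Adgre1 and Tyrobp with 0. Above that level, Cd14 had 28.03 and 25.23 FPKM in siCo and 30.36 and 33.15 FPKM in siYAP/TAZ libraries. Cd68 had 7.86 and 8.38 against 10.8 and 13.7 FPKM, and Fcer1g 0.87 and 0.89 against 1.89 and 2.33 FPKM. The 10 markers summed to 34.9 to 37.3 FPKM in siCo and 43.5 to 49.8 FPKM in siYAP/TAZ libraries, most of it from Cd14. Of the 5 tested 3 were higher (Cd14, Cd68 and Fcer1g), 1 was lower and 1 did not pass. Markers of other vessel wall cells moved too. Fibroblast markers summed to 149 to 178 FPKM in siCo and 265 to 270.2 FPKM in siYAP/TAZ libraries, with 7 of 7 tested higher. Endothelial markers summed to 90.5 to 93.3 and 125 to 129 FPKM, with 6 of 8 tested higher and 1 lower, and none of the listed fibroblast markers was at 0. In the siCo libraries Cdh5, the highest endothelial marker, had 42.65 and 41.7 FPKM, beside 35.7 and 35.3 FPKM for the smooth muscle marker Tagln. Another endothelial marker, Vwf, stayed below 0.5 FPKM in each library. In bulk RNA fewer cells of a type and less RNA per cell cannot be told apart, and the part of these cells in the IRF levels was not tested.

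Across the family, 6 of the 7 tested factors were higher and 0 lower, against 27.6% of all genes tested being higher. The factors were chosen with earlier results of these data known, so this count is no independent evidence. No factor was lower at an unadjusted p under 0.05 either, a count of 0 from edgeR and also 0 from DESeq2 at an adjusted p under 0.05. The median log2 fold change of the 7 tested factors was 0.64, and over all genes tested it was -0.00033 with quartiles of -0.31 and 0.35. Irf5 lay above 93.2% of the tested genes in log2 fold change, Irf7 above 89.4%, Irf1 above 89.1%, Irf8 above 85.7%, Irf2 above 75.8%, Irf9 above 69.5% and Irf3 above 55.3%.

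**Figure D2:**
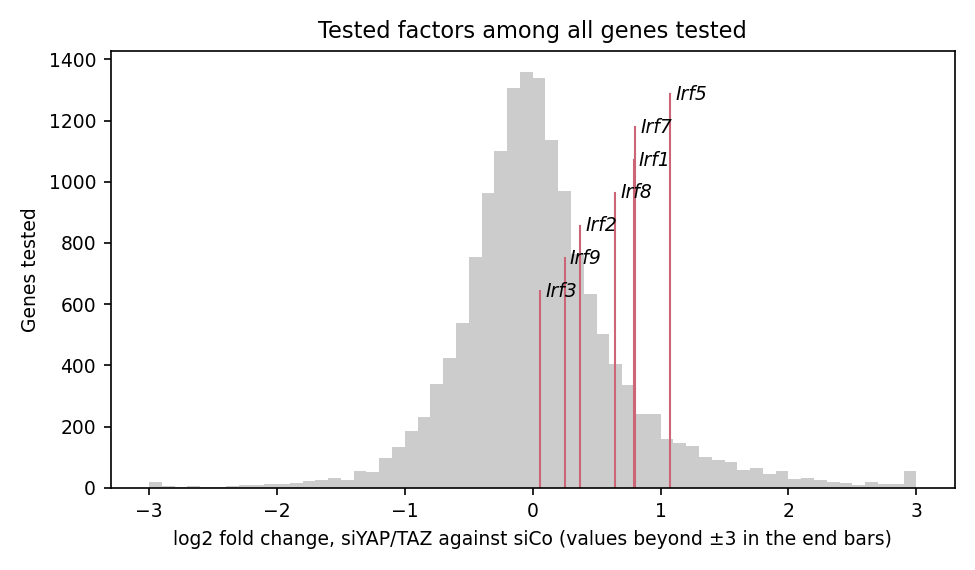
Histogram of the log2 fold change of siYAP/TAZ against siCo over 15479 tested genes, with red lines at the 7 tested factors. The lines run from 0.06 for Irf3, near the middle of the distribution, to 1.07 for Irf5 in its upper shoulder, and those of Irf1 and Irf7 lie almost on each other.

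The order of levels shifted between the groups. In siCo cells it was Irf7, Irf9, Irf1, Irf3, Irf5, Irf2, Irf8 and Irf4 by mean FPKM (n = 2). Only Irf3 and Irf5 were neighbours whose means, 12.8 ± 0.677 and 11.8 ± 0.639 FPKM (SD, n = 2), differed by less than the sum of their SDs. In siYAP/TAZ cells the order was Irf7, Irf1, Irf5, Irf9, Irf3, Irf2, Irf8 and Irf4, and only Irf5 and Irf9, at 24.1 ± 1.79 and 22.9 ± 0.416 FPKM (SD, n = 2), did not differ by that measure. In FPKM, Irf9 thus stood above Irf1 in siCo cells, by more than the sum of their SDs, and below it in siYAP/TAZ cells. That order depends on the exonic lengths used for scaling, 5386 bases for Irf9 and 3976 for Irf1. By counts Irf9 was above Irf1 in each library, at 1982 and 1908 against 1281 and 1198 in siCo. The siYAP/TAZ libraries gave 2339 and 2090 against 2101 and 1992.

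Sizes of change were then set side by side within libraries, as the log2 ratio of the counts of 2 factors, for 5 pairs of neighbours in size of change among the 6 factors above 5 FPKM. The change of Irf5 exceeded that of Irf7 by 0.27 on the log2 scale (95% least-squares interval from 0.013 to 0.53). Irf7 and Irf1 differed by 0.012 (interval from -0.011 to 0.035), the narrowest interval of the 5. Irf1 exceeded Irf2 by 0.42 (interval from 0.18 to 0.66), Irf2 and Irf9 differed by 0.12 with an interval that includes 0 (from -0.11 to 0.35), and Irf9 exceeded Irf3 by 0.19 (interval from 0.0081 to 0.37). Each pair had an exact permutation p of 0.333 (two-sided), also after adjustment over the 5, which is the smallest that 2 libraries against 2 allow. The pairs were formed from the order of the changes, so the intervals describe these libraries only.

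**Figure D3:**
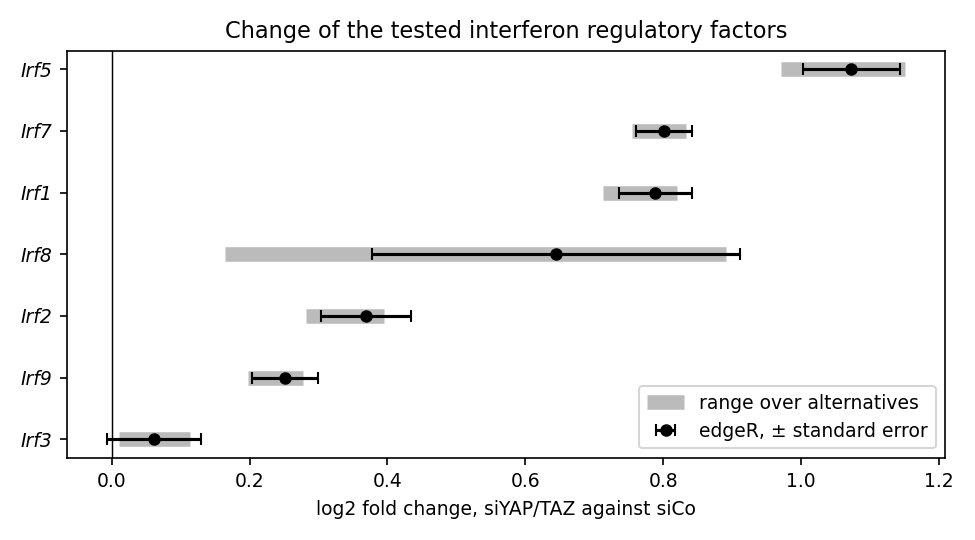
Log2 fold change of siYAP/TAZ against siCo for the 7 tested factors, with points and bars for edgeR's value ± its SE and grey bands for the range over the alternative settings. All bands lie above 0, that of Irf3 from 0.01 to 0.11 without passing the test in any setting, and the band of Irf8 is by far the widest, from 0.16 to 0.89.

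The genes nearest in pattern were sought by the distance between log2 counts, scaled by library size, over the 4 libraries, each gene centred on its own mean, for the 3 factors with the largest changes. Nearest to Irf5 were Acsbg1, an acyl-CoA synthetase (distance 0.0309), Npr1, a receptor of natriuretic peptides (0.0337), and Slc2a9, a urate and hexose transporter (0.0450). Nearest to Irf7 were Tgfbr2, a receptor of TGF-beta (0.0203), Lpin2, a phosphatidate phosphatase (0.0239), and Ldb3, a Z-disc protein of muscle (0.0244). Nearest to Irf1 were Slc4a7, a bicarbonate cotransporter (0.0130), then Lpin2 (0.0227) and Tgfbr2 (0.0263) again. With 4 libraries in 2 groups such nearness mostly restates a similar fold change.

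Genes that act with the IRFs were read from the same test, in 12 lists chosen by known role. The lists were also chosen with earlier results of these data known, so their counts are no independent evidence. Of 97 genes listed, 77 were tested, of which 59 were higher, 5 were lower and 13 did not pass, beside the 27.6% higher and 27.7% lower over all genes. Their median log2 fold change was 0.57. DESeq2 called 3 of the listed genes lower, as did edgeR without siYAP/TAZ replicate 2.

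**Figure D4:**
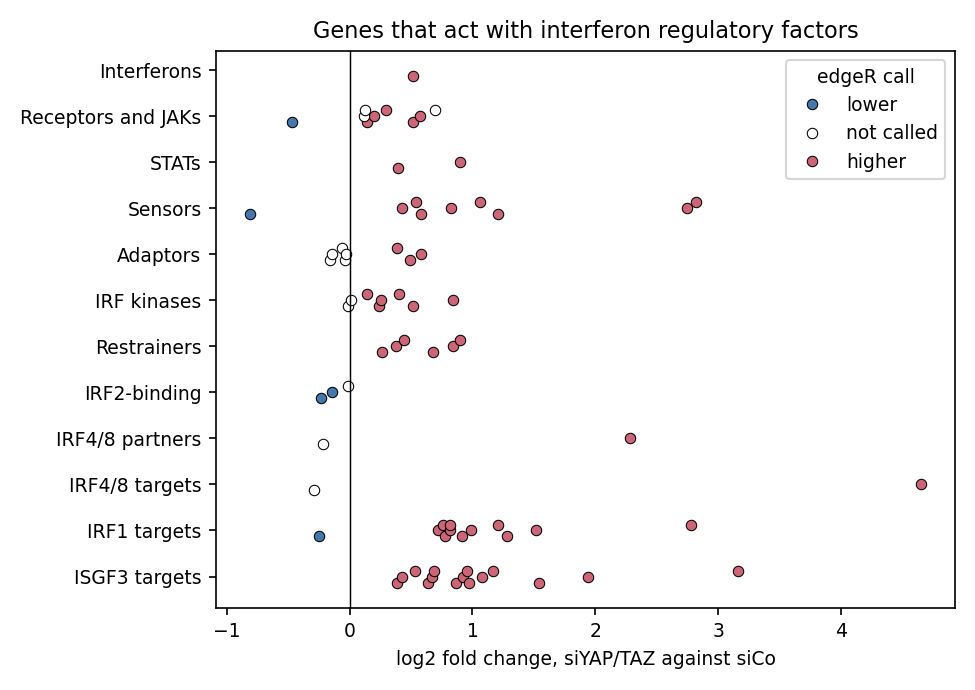
Log2 fold change of each tested gene in the 12 lists, red where higher, blue where lower and white where not called by edgeR. The targets of ISGF3 and IRF1 lie almost wholly to the right of 0, with Vcam1 the exception at -0.25, whereas the IRF2-binding genes lie below 0, and the rightmost point is Cybb at 4.65.

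Transcripts of most interferon genes were absent or sparse, and Ifnb1 was the exception. Of 12 interferon genes 8 had 0 counts in all libraries, Ifng among them, and only Ifnb1 passed the filter. Ifnb1, the interferon gene that IRF3 and IRF7 switch on first, had 83 and 89 counts in siCo and 115 and 120 counts in siYAP/TAZ cells, with no overlap. In FPKM, Ifnb1 was at 6.01 and 6.58 in the siCo and 8.18 and 9.31 in the siYAP/TAZ libraries. Its log2 fold change was 0.52 (SE 0.179, adjusted p = 0.01866 by edgeR). It did not pass in DESeq2 (adjusted p = 0.1134), without siCo replicate 1 (log2 fold change 0.45, adjusted p = 0.0606) or without siYAP/TAZ replicate 2 (0.43, adjusted p = 0.1481).

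Among genes known to act upstream of the factors, sensors and kinases were mostly higher. Which of these changes came first was not tested. Of 9 nucleic acid sensors 8 were higher and 1 was lower. Dhx58, which modulates RIG-I signalling, had a log2 fold change of 1.21 (SE 0.048), and Tlr3, a receptor of double-stranded RNA, had one of 1.06 (SE 0.0603). Tlr7, which signals to IRF5 and IRF7, had 7 and 3 counts in siCo and 34 and 35 counts in siYAP/TAZ cells, 6.996 times as many per total count (95% exact limits 3.58 and 15.2). Tlr9 had 1 and 3 counts against 12 and 15, and its adjusted p was 0.05021 without siCo replicate 1 and 0.05313 without siYAP/TAZ replicate 2. Cgas, the sensor of cytosolic DNA, was the lower one, with 6.00 and 5.81 FPKM in siCo and 2.90 and 3.64 FPKM in siYAP/TAZ libraries and a log2 fold change of -0.81 (SE 0.109).
Of 8 tested adaptors 3 were higher and 5 did not pass. Ticam1, the adaptor of TLR3, had a log2 fold change of 0.58, Tmem173, which encodes STING, one of 0.49, and Myd88 one of 0.38. Slc15a4, a lysosomal transporter needed for IRF5 activation, had one of -0.16 without passing, but passed without siCo replicate 2 (-0.26, adjusted p = 0.01427 by edgeR) and was at -0.055 without siCo replicate 1 (adjusted p = 0.6705). Of 8 kinases and kinase scaffolds 6 were higher. Ikbke, which encodes IKK-epsilon, had 15.7 and 14.2 FPKM in siCo and 25.9 and 26.0 FPKM in siYAP/TAZ libraries, a log2 fold change of 0.84 (SE 0.0493). Irak4, Azi2 and Tbkbp1 had log2 fold changes of 0.52, 0.40 and 0.25.

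Partners and restraints of the factors moved with them in part. Stat2, which binds IRF9, went from 54.3 and 52.7 FPKM to 97.6 and 96.1 FPKM, with a log2 fold change of 0.90, and Stat3 had one of 0.39, both past the test. Of 9 receptor and Janus kinase genes 5 were higher, 1 was lower and 3 did not pass. Tyk2 and Jak2 had log2 fold changes of 0.57 and 0.52, Ifnlr1 had one of 0.70 on 7 to 21 counts without passing, and Ifngr1, which binds interferon gamma, was the lower one at -0.47.
Among genes that restrain IRFs or interferon signalling, Lyn, an inhibitor of IRF5, had a log2 fold change of 0.89, Socs1 one of 0.84, Usp18 one of 0.68 and Adar one of 0.44, each past the test. Of the corepressors that bind IRF2, Irf2bp1 had a log2 fold change of -0.23 and Irf2bp2 one of -0.15, both past the test, and Irf2bpl had one of -0.016. Neither call held in DESeq2, with adjusted p-values of 0.05641 for Irf2bp1 and 0.1016 for Irf2bp2, nor without siYAP/TAZ replicate 2, with 0.07063 and 0.1399, and that of Irf2bp2 was 0.07515 without siYAP/TAZ replicate 1.

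Downstream, all 15 targets of ISGF3 were higher, with a median log2 fold change of 0.92. Mx1, Ifit2, Cmpk2 and Ifit3, all antiviral effectors, had the largest values at 3.16, 1.94, 1.54 and 1.17. Their levels in the siCo libraries differed widely, with Ifit3 already at 448 and 421 FPKM and Mx1 at 3.14 and 2.90 FPKM. Of 12 tested genes known to need IRF1, 11 were higher and 1 was lower, with a median of 0.86. Cxcl9, a chemokine for T cells, had a log2 fold change of 2.78, the guanylate-binding protein genes Gbp5 and Gbp2 had 1.51 and 1.28, and Psmb9, an immunoproteasome subunit, had 1.21. Vcam1, an adhesion molecule, was the lower one.
The partners and targets of IRF4 and IRF8 gave a sparser picture. Spi1, which encodes PU.1, had 0 counts in all 4 libraries, and only 2 of 7 partner genes were tested. Batf2 rose from 1.34 and 1.63 FPKM to 7.08 and 6.87 FPKM, a log2 fold change of 2.28 (SE 0.147), and Batf had one of -0.22 without passing. Among the targets, Cybb, the catalytic subunit of the phagocyte oxidase, was called higher on 0 and 1 counts against 16 and 14, 30.4 times as many per total count (95% exact limits 5.06 and 1241). Its fitted log2 fold change, which depends on the prior count at such low counts, was 4.65, against 3.79 without siCo replicate 1 and 6.95 without siCo replicate 2. Prdm1, a regulator of plasma cell differentiation, had a log2 fold change of -0.29 and did not pass, though it passed without siCo replicate 2 (-0.47, adjusted p = 0.003723 by edgeR) and was at -0.075 without siCo replicate 1 (adjusted p = 0.7232).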

How the data were processed

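RNA-seq of 2 siCo and 2 siYAP/TAZ libraries was analysed. Per the methods, which describe RNA-seq of tissue, the authors trimmed reads with Trimmomatic, aligned them to mm10 with HISAT2 and counted unique reads per Ensembl gene with featureCounts; tool versions, the annotation release and the strandedness of counting are not given in the sources used. The deposited values are raw read counts per gene and FPKM, which the authors computed from counts, exonic length and library totals. The same formula gave the deposited FPKM to within 0.0051 for all 55573 genes in both siCo libraries. Another 2 columns of FPKM could not be tied to single samples and were not used, so FPKM of all libraries was computed from counts. The siYAP/TAZ count columns are tied to the group only, and their replicate numbers follow the table. Of 55630 rows, 57 name no gene and were left out.

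Counts were tested with edgeR 4.0.16 in R 4.3.3 (TMM scaling, filterByExpr with a minimum count of 10, quasi-likelihood test, Benjamini-Hochberg adjustment over 15479 genes, threshold 0.05, no block), with DESeq2 1.42.0, limma 3.58.1 on log2(FPKM + 1) or log2(FPKM + 0.1), other scalings and filters, a replicate block and each library left out as alternatives. Standard errors are the log2 fold change divided by the root of F. In the edgeR fit each gene had 2 residual degrees of freedom, beside a median of 18.6 borrowed from the spread of all genes. The small p-values of edgeR thus rest mostly on variation pooled over genes. Intervals and limits for low counts cover counting error only. On simulated counts for siYAP/TAZ against siCo, with 200 of 15479 genes changed, edgeR recovered 79% of changes of 1 and 97% of changes of 2 on the log2 scale. Changes below 1, the size seen for every tested factor but Irf5, were not simulated. Far fewer genes changed there than the 55.4% called in the data, so these rates need not hold for the data. Named genes were the 8 factors, Yap1 and Wwtr1, up to 4 tested genes of each list with the largest absolute log2 fold change and those going against their list (a list of 3 was named whole), and the 3 nearest genes to each of 3 factors. Genes overlapping a factor were named for their position. Another 4 genes first placed in the lists are not reported here, not all of them called higher, and the counts and medians of the lists leave them out. The factors and lists were chosen with earlier results of these data known. Other samples of the series were not analysed here.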

Additional observations from a re-analysis of the deposited data

How the results depend on the processing

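Over 14 alternative settings the factors gave 97 values, of which 90 kept their direction and their side of the threshold and 7, all of Irf8, no longer passed. The log2 fold change of Irf8 was 0.65 in DESeq2 (adjusted p = 0.1868), 0.60 with edgeR scaled by library totals (adjusted p = 0.06264), 0.16 with limma on log2(FPKM + 1) (adjusted p = 0.1073) and 0.48 with limma on log2(FPKM + 0.1) (adjusted p = 0.1174), and a filter at a mean FPKM of 1 gave it no value. Irf1, Irf2, Irf5, Irf7 and Irf9 passed in each of the 14. Leaving out each library in turn gave 5 to 6 factors higher and 0 lower, 55 to 59 genes of the lists higher and 3 to 7 lower, and 3621 to 4134 of all genes higher and 3433 to 4187 lower. Over all settings the counts over all genes ran from 2990 to 4440 higher and from 3287 to 4809 lower. Same-numbered libraries did not deviate together (correlation 0.007), and the fit with the replicate block, with 4440 genes higher and 4428 lower, changed no call of a factor. DESeq2 called 3 genes of the lists lower against 5 in edgeR. Of 678 values of other named genes 664 kept their direction and side, 10 no longer passed, 3 newly passed and 1 changed sign, which was Irf2bpl at 0.0024 without siYAP/TAZ replicate 2 (-0.024 without siYAP/TAZ replicate 1 and -0.016 with every library). Slc15a4 also passed with edgeR scaled by library totals (-0.21, adjusted p = 0.03838). The cause of these shifts was not tested. With 2 libraries a group, and at most 59 counts a library for Irf8, depth limits what can be said of Irf4 and Irf8.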
